A study of Mus musculus with 10 samples.

Results

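The adult alpha globins (Hba-a1 and Hba-a2) and the adult beta globins (Hbb-bs and Hbb-bt) were followed in RNA of the medial knee cartilage cap of 5 wild-type mice and 5 Mir324-null mice, which lack the microRNA gene Mir324. Members were listed by name and their transcript abundances summed per gene. Of the 5 genes listed, the 4 globins were matched among 35705 genes, and Ahsp, whose product binds free alpha chains and keeps them from precipitating, was not analysed here, so no value of a stabilizing factor relative to globin load is given. Each library came from 1 mouse. The labels give no age, sex, litter, background strain or batch, name no treatment, and do not say whether the null allele is carried by every cell. Their tissue is articular cartilage and their cell type chondrocyte. The level of Mir324 itself was not analysed here.

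Haemoglobin is the oxygen carrier of red cells and is built from pairs of alpha and beta chains, each holding a heme group. Its genes sit in an alpha cluster and a beta cluster that are read together in erythroid precursors, which keep globin RNA after other transcripts have been cleared. Cartilage has no blood vessels of its own, while the bone and marrow beneath it hold blood and erythroid precursors.

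The duplicated genes are almost the same in sequence, which bears on every value that separates them. In GENCODE M21 (GRCm38) the transcript that held nearly all of the abundance of each gene was Hba-a1-201 (chr11:32283511-32284465, plus strand), Hba-a2-201 (chr11:32296489-32297298, plus strand), Hbb-bs-201 (chr7:103826534-103827928, minus strand) and Hbb-bt-201 (chr7:103812524-103813996, minus strand). Each has 3 exons and 2 introns. Hba-a1 and Hba-a2 differ at 1 of 426 coding bases (C381T, counted from the first coding base, with the base of Hba-a1 first), and Hbb-bs and Hbb-bt at 1 of 441 (C417T, with the base of Hbb-bs first). Neither difference changes the encoded residue. The 60 coding bases around each difference, all in the last exon, are shown with the differing base in capitals, 5′ to 3′, because this base is all that separates the coding sequence of each pair.
Hba-a1, chr11:32284313-32284372: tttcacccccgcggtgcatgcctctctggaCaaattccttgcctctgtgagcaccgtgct
Hba-a2, chr11:32297130-32297189: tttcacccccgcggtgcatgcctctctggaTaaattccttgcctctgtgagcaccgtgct
Hbb-bs, chr7:103826668-103826727: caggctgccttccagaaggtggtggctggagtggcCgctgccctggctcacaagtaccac
Hbb-bt, chr7:103812659-103812718: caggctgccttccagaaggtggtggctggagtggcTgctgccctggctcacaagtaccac

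Pseudoalignment assigns reads by short words of sequence, so the words that each transcript shares with its twin were counted, at a length of 31 bases. Of 669 such words in Hba-a1-201, 191 (28.6%) occurred in no other annotated gene, and 161 of those began in a stretch that lies before the RefSeq start of the gene. Hba-a2-201 had 47 of 524 (9.0%), Hbb-bs-201 had 198 of 598 (33.1%) and Hbb-bt-201 had 273 of 673 (40.6%), of which 73 began before its RefSeq start. The stretch before the RefSeq start of Hba-a1 has the same bases in the DNA before Hba-a2-201. Words counted there as unique to Hba-a1 depend on where both models start. The division of reads between twins is therefore less certain than the sum of a pair. The table's transcripts carry version numbers 1 above those of the annotation, so the authors' models may differ at the ends.

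The promoters of the alpha pair are the same over 247 bases, at a shift of 3 bases between the RefSeq starts, and those of the beta pair match at 51.0% of 249 bases without gaps. Because the levels of the 4 genes follow each other across mice, 1 promoter of each pair is shown from the RefSeq table (GRCm38.p6). Each sequence ends at the base before the start of the gene's main transcript named above. A further annotated transcript, Hbb-bs-203, starts inside the Hbb-bs window and held at most 5.25 TPM in a library. Capitals mark matches of 4 motifs known from globin promoters. These are the letters ATATAA for the TATA box, which helps position the start of transcription, the box named CCAAT after its letters, the box named CACCC in the same way, to which the erythroid factor Klf1 binds, and GATAA for the sites of Gata1. Both strands were searched, and no matches overlap in these windows.
Hba-a2, chr11:32296242-32296488, plus strand: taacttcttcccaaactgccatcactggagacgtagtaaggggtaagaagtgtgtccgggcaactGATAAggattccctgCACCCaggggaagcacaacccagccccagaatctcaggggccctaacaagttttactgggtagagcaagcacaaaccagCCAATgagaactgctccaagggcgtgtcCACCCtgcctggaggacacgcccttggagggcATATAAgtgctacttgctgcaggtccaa
Hbb-bs, chr7:103827929-103828178, minus strand: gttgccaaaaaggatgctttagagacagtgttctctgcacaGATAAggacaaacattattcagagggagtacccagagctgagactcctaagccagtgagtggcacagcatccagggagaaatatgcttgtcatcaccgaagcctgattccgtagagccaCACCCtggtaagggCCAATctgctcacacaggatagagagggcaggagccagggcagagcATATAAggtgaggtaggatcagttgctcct

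The ATATAA match began 31 bases before the RefSeq start in Hba-a2 and 30 in Hbb-bs, and the CCAAT box 91 and 76 bases before it. CACCC boxes began 170 and 63 bases before the start of Hba-a2 and 90 before that of Hbb-bs. The GATAA match began 185 and 209 bases before the start. Each of the 4 globin windows held all 4 motifs. Among 32851 promoter windows of 250 bases, 9.1% held ATATAA, 33.8% CCAAT, 52.0% CACCC and 22.6% GATAA, and 0.466% held all 4. A match describes letters in the window and is no measurement of binding.

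As the reads were assigned between the twins, Hba-a1 was the most abundant gene in every one of the 10 libraries. In the wild-type mice, in the order of their replicate numbers, its abundance was 41883, 62244, 74421, 66877 and 45315 TPM (the abundance of transcripts corrected for length, relative to a total that is fixed for every library). The Mir324-null mice had 70799, 62336, 79635, 91285 and 99094 TPM of Hba-a1. All 5 null mice lay above the wild-type mean and 3 of them above the highest wild-type mouse, so the groups overlapped. The mean was 58148 ± 14027 TPM in wild-type mice and 80630 ± 14889 TPM in null mice (SD, n = 5 each), a ratio of 1.39. On the log2(TPM + 1) scale the Hba-a1 difference was 0.49 (SE 0.187, 95% interval 0.08 to 0.89). It did not pass the threshold in limma (Benjamini-Hochberg adjusted p = 0.362, unadjusted p = 0.0233), and the two-sided exact permutation p was 0.0556.

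Hba-a2, the other adult alpha globin, ranked between 4 and 6 among all genes in every library. Its levels were 20097, 24562, 29756, 26493 and 16006 TPM in wild-type mice. In the null mice they were 25306, 22607, 33839, 32506 and 40141 TPM. Null mice 1 and 2 lay within the wild-type range of Hba-a2, and the other 3 lay above it. The means of 23383 ± 5406 and 30880.0 ± 7012 TPM (SD, n = 5 each) differed by 0.40 on the log2 scale (SE 0.195, 95% interval -0.02 to 0.83), with a limma Benjamini-Hochberg adjusted p of 0.458 and an exact permutation p of 0.111.

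Hbb-bs, the more abundant beta globin, ranked between 2 and 4. It stood at 32232, 46689, 56836, 56586 and 33202 TPM in wild-type mice. Null mice had 47603, 42939, 54614, 67631 and 74809 TPM. Only null mice 4 and 5 exceeded the wild-type range of Hbb-bs. The means were 45109 ± 12035 and 57519 ± 13422 TPM (SD, n = 5 each), a log2 difference of 0.36 (SE 0.210, 95% interval -0.10 to 0.82; limma Benjamini-Hochberg adjusted p = 0.549, exact permutation p = 0.167).

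Hbb-bt, the second beta globin, ranked between 3 and 6. Wild-type mice had 17440.0, 30793, 35896, 37150 and 22715 TPM. Null mice had 31162, 29613, 37201, 41404 and 47251 TPM, of which 3 exceeded every wild-type mouse. The Hbb-bt means were 28799 ± 8517 and 37326 ± 7291 TPM (SD, n = 5 each), a log2 difference of 0.41 (SE 0.216, 95% interval -0.06 to 0.88; limma Benjamini-Hochberg adjusted p = 0.502, exact permutation p = 0.135).

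**Figure D1:**
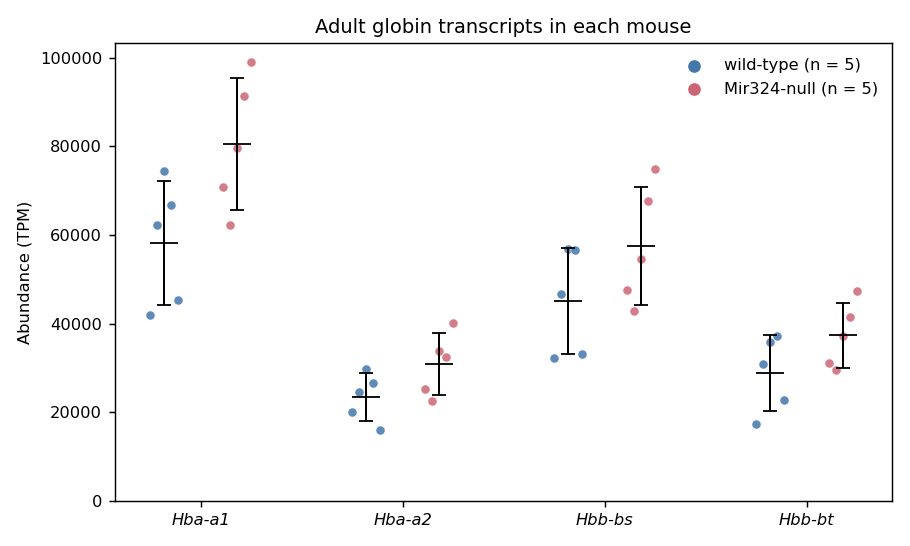
Abundance of each adult globin in TPM (vertical axis), with 1 point per mouse (blue wild-type, red Mir324-null, left to right in replicate order) and bars for the mean and SD (n = 5 each). For each gene the null mean lies above the wild-type mean, and the groups overlap.

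In each of the 4 globins the null mean was above the wild-type mean, and in none did the groups separate. Of the 4, 1 (Hba-a1) had an unadjusted limma p under 0.05 and 0 passed after Benjamini-Hochberg adjustment. Over all 13841 genes tested, 0 passed the adjusted threshold (0%), and the adjusted exact permutation p was never below 0.399. At an unadjusted limma p under 0.05, the null mean was the higher in 592 genes (4.28%) and the lower in 1011 (7.30%). All 5 null mice lay above all 5 wild-type mice in 122 genes (0.881%), none of them an adult globin. The split of unadjusted calls depended on the scaling. It was 592 higher and 1011 lower as deposited, 875 and 888 with median-ratio scaling, and 1218 and 577 after rescaling to the total without haemoglobin genes. The globin differences had the same sign under each of these, at 0.54, 0.46, 0.42 and 0.46 (median ratio) and 0.58, 0.49, 0.45 and 0.50 (without haemoglobin genes) for Hba-a1, Hba-a2, Hbb-bs and Hbb-bt. Quantile normalization, which gives every library the same set of values, left smaller differences of 0, 0.11, 0.14 and 0.21 in the same order, and that of Hba-a1 is 0 because it ranks first in each library. Without wild-type mouse 1 the differences were 0.38, 0.36, 0.25 and 0.24 in the same order, and that of Hba-a2 was 0.28 without wild-type mouse 5. With median-ratio scaling, 0 of the 4 had an unadjusted limma p under 0.05.

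The 4 globins together took up 11.2%, 16.4%, 19.7%, 18.7% and 11.7% of all TPM in wild-type mice. Their share in null mice was 17.5%, 15.7%, 20.5%, 23.3% and 26.1%. The means were 15.5% ± 3.93 and 20.6% ± 4.21 (SD, n = 5 each), 5.09 percentage points apart, and the difference ranged from 3.72 to 6.31 points when each mouse was left out in turn. Wild-type mice 1 and 5 were the lowest of all 10, and null mice 4 and 5 the highest. Because TPM sums to a fixed total, a library with more globin RNA has lower TPM of its other genes. In bulk tissue, fewer cells of a type and less RNA per cell cannot be told apart.

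The levels, as assigned between twins, kept nearly the same order in every mouse. Hba-a1 exceeded Hbb-bs in 10 of 10 mice, by a ratio of 1.18 to 1.49, and Hbb-bs exceeded Hbb-bt in 10 of 10, by 1.45 to 1.85. The neighbours Hbb-bt and Hba-a2 were closest: Hba-a2 was the higher in 1 of 10 mice, wild-type mouse 1, and their ratio (Hba-a2 to Hbb-bt) ran from 0.705 to 1.15. Within each library, Hba-a1 made up 67.6% to 73.9% of alpha globin, and Hbb-bs 59.2% to 64.9% of beta globin.

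Alpha and beta globin followed each other across mice. The sum of the alpha genes ran from 61321 to 139235 TPM and that of the beta genes from 49672 to 122060 TPM. On the log2 scale, Pearson's r over the 10 mice was 0.971 (permutation p = 5.0e-05) and Spearman's rho 0.903 (permutation p = 0.00084). This was the only correlation tested, so no adjustment was made. Without wild-type mice 1 and 5, which lay farthest from the median of alpha globin, r was 0.929 (permutation p = 0.00136) and rho 0.833 (permutation p = 0.0159). Within genotypes r was 0.971 in wild-type and 0.987 in null mice, each over 5 mice and given as a description. The points share the fixed total of each library, and the resampling pooled both genotypes. Alpha and beta globin are read in the same cells, so these p-values test only against independence across libraries.

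**Figure D2:**
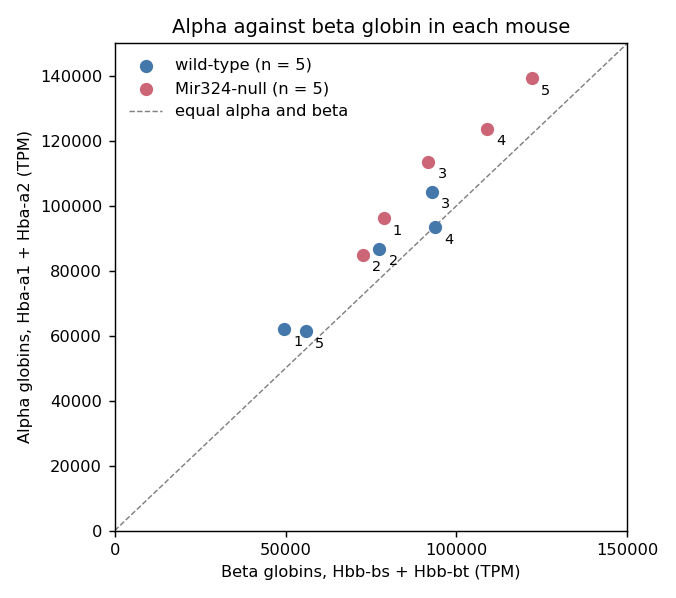
Summed alpha globin against summed beta globin, both in TPM, with 1 numbered point per mouse (blue wild-type, red Mir324-null) and a dashed line where both are equal. The mice lie along 1 line from 61321 to 139235 TPM of alpha globin, and only wild-type mouse 4 falls just under the line of equality, with a ratio of 0.996.

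A ratio within a library is the same whatever factor the library is scaled by, so the balance of the chains was compared directly. The alpha to beta ratio was 1.25, 1.12, 1.12, 0.996 and 1.097 in wild-type mice. It was 1.22, 1.17, 1.24, 1.14 and 1.14 in null mice. Every null mouse lay above the wild-type mean, and the groups overlapped only through wild-type mouse 1, which had the highest ratio of all. The mean ratio was 1.12 ± 0.0897 and 1.18 ± 0.0457 (SD, n = 5 each), a log2 difference of 0.08 (SE 0.0574). The exact permutation p was 0.175, and 0.524 after Benjamini-Hochberg adjustment over the 3 ratios tested. The smallest p the design allows is 0.00794. Without wild-type mouse 1, wild-type ratios ran from 0.996 to 1.12 and null ratios from 1.14 to 1.24 with no overlap, and the log2 difference was 0.12 (exact permutation p = 0.0159, adjusted p = 0.0476). Without wild-type mouse 4, which had the lowest ratio, the log2 difference was 0.043 (exact permutation p = 0.365, adjusted p = 0.532). Of 13 alternatives, 1 had an exact permutation p under 0.05, which was that without wild-type mouse 1. The call therefore depended on the mouse left out.

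The division within each pair did not separate the genotypes. The Hba-a1 to Hba-a2 ratio was 2.08, 2.53, 2.50, 2.52 and 2.83 in wild-type mice. Null mice had 2.80, 2.76, 2.35, 2.81 and 2.47, inside the wild-type range, with wild-type mouse 1 the lowest of all. The log2 difference was 0.08 (SE 0.0885), with an exact permutation p of 0.381 and an adjusted p of 0.571. Without wild-type mouse 1 it was 0.02 and without wild-type mouse 5 it was 0.13 (exact permutation p = 0.802 and 0.127). The Hbb-bs to Hbb-bt ratio was 1.85, 1.52, 1.58, 1.52 and 1.46 in wild-type mice. Null mice had 1.53, 1.45, 1.47, 1.63 and 1.58, and wild-type mouse 1 was again apart, as the highest. The log2 difference was -0.05 (SE 0.0675), with an exact permutation p and an adjusted p of 0.579. Without wild-type mouse 1 it was 0.01 (exact permutation p = 0.857).

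**Figure D3:**
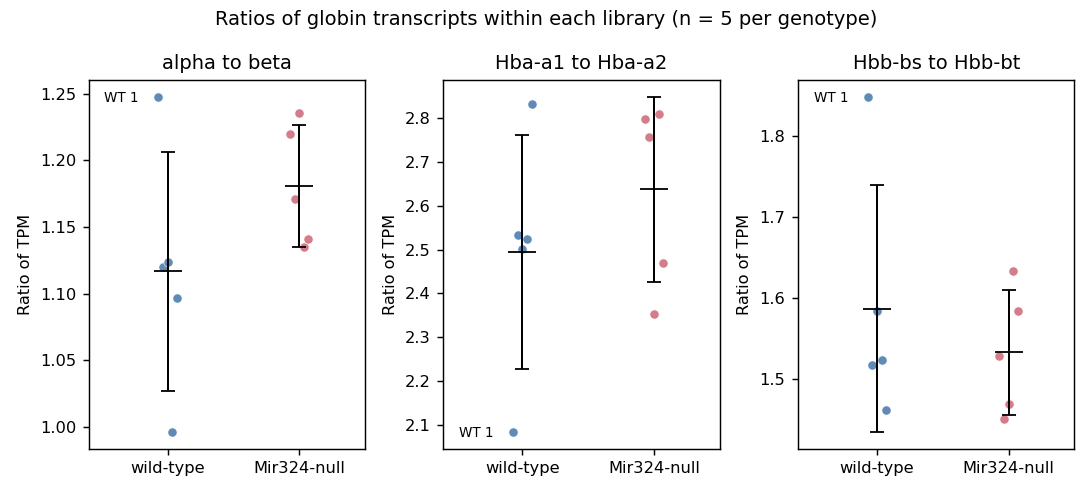
Ratio of TPM (vertical axis, not starting at 0) of alpha to beta globin, Hba-a1 to Hba-a2 and Hbb-bs to Hbb-bt, with 1 point per mouse (blue wild-type, red Mir324-null, n = 5 each) and bars for the mean and SD. Wild-type mouse 1, marked WT 1, has the highest alpha to beta ratio (1.25) and Hbb-bs to Hbb-bt ratio (1.85) and the lowest Hba-a1 to Hba-a2 ratio (2.08).

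The other globins were rare beside the adult genes, which made up 99.96% to 99.98% of haemoglobin TPM in each library. Of 11 other globins listed, 9 were matched and 3 passed the filter of a mean of at least 1 TPM. The embryonic globins Hba-x, Hbb-y and Hbb-bh1 reached at most 0.836, 0.907 and 0.645 TPM in a library, and Hbb-bh2 was listed at 0 in all 10. Hbq1b, a theta globin of the alpha cluster, had a wild-type mean of 33.6 ± 6.78 TPM and a null mean of 50.1 ± 7.21 TPM (SD, n = 5 each, as for all later pairs of means). The Hbq1b groups did not overlap, at 25.5 to 42.1 against 43.1 to 60.3 TPM, and the log2 difference was 0.57 (SE 0.146; limma Benjamini-Hochberg adjusted p = 0.283, exact permutation p = 0.00794). Its near copy Hbq1a was at 2.69 ± 1.28 and 3.59 ± 2.26 TPM (limma adjusted p = 0.808), and the assignment of reads between these copies is uncertain. Cygb, the globin of connective tissue cells, had the lower null mean among the 3 tested, at 5.11 ± 0.952 and 4.12 ± 0.887 TPM (limma adjusted p = 0.587).

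Genes of other red cell functions had the same direction. In 6 lists of genes that build the red cell, all 62 members passed the filter and had a higher null mean, 53 of them at an unadjusted limma p under 0.05 and 0 after Benjamini-Hochberg adjustment. In 13 of the 62 the genotypes did not overlap, with every null mouse the higher. This held for 122 of all 13841 genes tested (0.881%). The median log2 difference of the 62 genes was 0.46, beside 0.41 for the 4 globins and -0.05 for all genes tested, of which 39.98% were higher. All 62 were also higher with median-ratio scaling, with quantile normalization, after rescaling without haemoglobin genes and without wild-type mouse 1. In that order, 48, 54, 55 and 46 of them had an unadjusted limma p under 0.05. Over all 13841 genes tested, 875, 884, 1218 and 527 were higher at that level, and 50.7%, 50.8%, 57.6% and 46.1% were higher at any p. As deposited, 4.28% of all genes tested were higher at that level, which is the share beside each list count below. The share of 0.881% stands beside each gene named below as not overlapping. These genes and the globins come from the same libraries and are not independent of each other. The lists were also chosen with earlier results of these data known. The lists of other globins and of haemoglobin and heme scavenging are not in this count and held genes of both directions.

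Among the 12 genes of heme synthesis, which supplies the group each globin chain carries, 11 had an unadjusted limma p under 0.05 and the median log2 difference was 0.45. Alas2, the erythroid enzyme of the first step, ran from 538 to 902 TPM in wild-type and from 752 to 1115 TPM in null mice (log2 difference 0.44, SE 0.164; limma Benjamini-Hochberg adjusted p = 0.355). Alas1, the enzyme of the same step in other tissues, was at 95.5 ± 19.3 and 102 ± 36.0 TPM, a log2 difference of 0.05 (SE 0.226; limma adjusted p = 0.971) that was 0.03 without wild-type mouse 1. Fech, which inserts the iron, was at 305 ± 59.7 and 410 ± 53.1 TPM. Alad, Urod and Cpox, enzymes of the steps between, had log2 differences of 0.47, 0.39 and 0.53, and Tmem14c, a mitochondrial porphyrin transporter, 0.27.

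Of 11 erythroid transcription regulators and the erythropoietin receptor, 8 had an unadjusted limma p under 0.05. Gata1, the regulator that binds GATA motifs in erythroid genes, ran from 33.3 to 61.0 TPM in wild-type and from 62.0 to 77.3 TPM in null mice with no overlap (log2 difference 0.55, SE 0.139; limma Benjamini-Hochberg adjusted p = 0.283). Tal1 and Lmo2, its partners in a shared complex, did not overlap either, with log2 differences of 0.59 and 0.37. Klf1, which binds CACCC boxes and is needed for adult beta globin, had a wide spread, from 17.3 to 50.01 TPM in wild-type and from 29.8 to 121 TPM in null mice (log2 difference 0.98, SE 0.405; limma Benjamini-Hochberg adjusted p = 0.391). Nfe2, Zfpm1 and Gfi1b, further erythroid regulators, had log2 differences of 0.40, 0.51 and 0.54. Ldb1, which bridges the Gata1 complex between distant sites, was at 65.2 ± 11.3 and 69.8 ± 8.57 TPM (log2 difference 0.10; limma adjusted p = 0.833), and its difference was 0.19 without wild-type mouse 1.

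The red cell membrane list had 15 of 16 genes at an unadjusted limma p under 0.05. Slc4a1, the anion exchanger band 3, had means of 496 ± 140 TPM (wild-type) and 745 ± 70.5 TPM (null), with a log2 difference of 0.63 (SE 0.185; limma Benjamini-Hochberg adjusted p = 0.308). Rhd, a Rhesus antigen, and Epb42, a protein that links band 3 to the membrane skeleton, did not overlap between genotypes (log2 differences 0.62 and 0.57). Epb41, a membrane skeleton protein, was at 199 ± 56.1 and 266 ± 51.8 TPM, a log2 difference of 0.45 that was 0.26 without wild-type mouse 1. Kel, Gypc and Ermap, which carry blood group antigens, had log2 differences of 0.46, 0.43 and 0.48.

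All 8 red cell enzymes had an unadjusted limma p under 0.05, and 4 of 8 without wild-type mouse 1. Carbonic anhydrase 2 (Car2) ran from 585 to 1149 TPM in wild-type and from 1152 to 1417 TPM in null mice with no overlap, and Blvrb, a biliverdin reductase, did not overlap either. Prdx2, which removes peroxide, was at 1135 ± 165 and 1430.4 ± 187 TPM. Bpgm, the enzyme that makes the small molecule that lowers the oxygen affinity of haemoglobin, was at 226 ± 68.2 and 322 ± 79.0 TPM (log2 difference 0.53, SE 0.227; limma Benjamini-Hochberg adjusted p = 0.410). Car1, Hagh, Cat and Pklr had log2 differences of 0.43, 0.32, 0.34 and 0.37, and that of Cat was 0.22 without wild-type mouse 1.

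In the iron handling list, 5 of 8 genes were at an unadjusted limma p under 0.05. The mitochondrial iron importer Slc25a37, the iron transporter Slc11a2 and the transferrin receptor Tfr2 did not overlap between genotypes (log2 differences 0.51, 0.46 and 0.55). Tfrc, the main transferrin receptor, ran from 102 to 175 TPM in wild-type and from 165 to 189 TPM in null mice, and Steap3, an iron reductase, had a log2 difference of 0.40. The ferritin chains, which store iron in many cell types, had smaller differences, of 0.12 for Fth1 (SE 0.101; limma adjusted p = 0.724) and 0.05 for Ftl1 (SE 0.0823; limma adjusted p = 0.899). Slc40a1, the iron exporter, had a log2 difference of 0.30 (limma adjusted p = 0.599). The difference was 0.12 for Slc40a1 and 0.22 for Tfrc without wild-type mouse 1. Quantile normalization gave larger differences for the ferritins, of 0.41 for Fth1 and 0.29 for Ftl1.

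In the list of red cell maturation and organelle clearance, 6 of 7 genes had an unadjusted limma p under 0.05. Mkrn1, a ubiquitin ligase, was at 338 ± 74.6 and 465 ± 67.0 TPM. Trim58, Trim10, Ube2o, Tspo2 and Fam210b had log2 differences of 0.56, 0.52, 0.43, 0.54 and 0.40. Bnip3l, the receptor by which maturing red cells clear their mitochondria, was at 293 ± 61.0 and 331 ± 47.5 TPM (log2 difference 0.19; limma adjusted p = 0.697). Leaving out wild-type mouse 1 gave 0.06 for Bnip3l, 0.32 for Trim10 and 0.37 for Trim58. Of 5 tested genes of haemoglobin and heme scavenging, 4 had a higher null mean and 0 an unadjusted limma p under 0.05, with a median log2 difference of 0.02. Haptoglobin (Hp), which binds free haemoglobin and is also made by neutrophils, was at 542 ± 138 and 548 ± 127 TPM. The heme oxygenase Hmox1 and the hemopexin receptor Lrp1 had log2 differences of 0.25 and -0.20 (limma adjusted p = 0.813 and 0.781). Without wild-type mouse 1, Hmox1 was at 0.02, Lrp1 at -0.04 and Hp at -0.11, and the list had 2 genes higher and 3 lower with a median of -0.02.

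**Figure D4:**
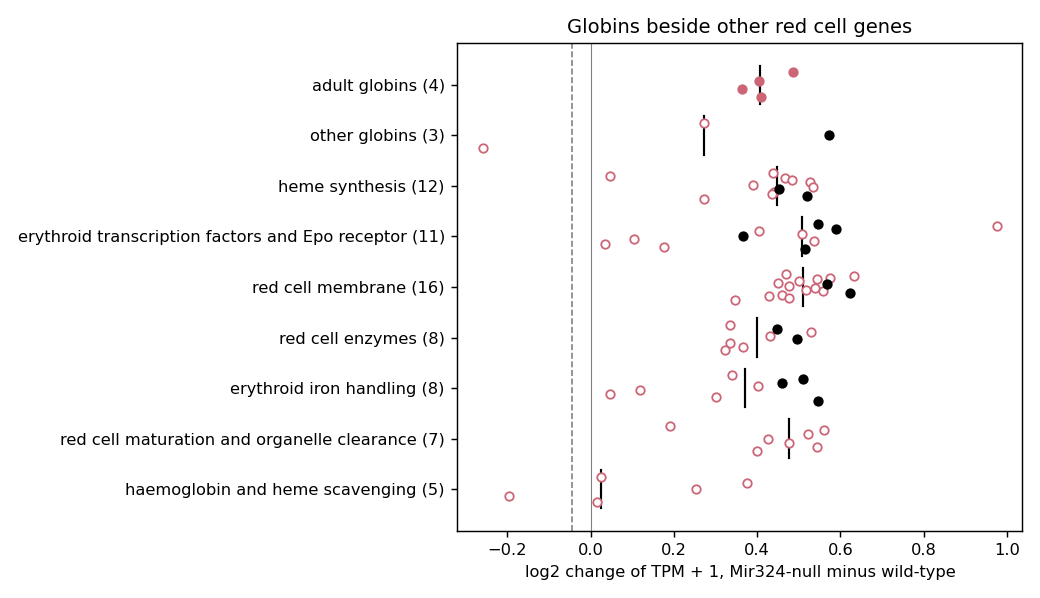
Difference of log2(TPM + 1), Mir324-null minus wild-type (horizontal axis), for the adult globins (filled red) and each tested gene of 8 lists, with the number tested in brackets, a bar at each list's median and a dashed line at the median of all genes tested (-0.05). Black points are genes whose genotypes did not overlap (not marked for the globins, of which none qualified), and the 6 lists from heme synthesis to maturation lie wholly above 0.

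The genes whose log2 levels followed the summed globins most closely over the 10 mice, among the 7978 genes averaging 10 TPM or more, were Alas2 (Pearson's r 0.977), Bpgm (0.974), Fam220a (0.968), Mkrn1 (0.961) and Isg20 (0.958), an exonuclease. The symbol Fam220a is carried by more than 1 gene identifier, and the value is that of ENSMUSG00000118332. Each also had a correlation of at least 0.870 within either genotype, and at least 0.935 over all mice without wild-type mouse 1. The genes were picked by their r over these same mice, so these values are no separate support. Alas2, Bpgm and Mkrn1 were also on the lists above. The gene most opposite was Id2 (r -0.959), an inhibitor of helix-loop-helix factors, with means of 71.7 ± 10.9 TPM (wild-type) and 59.6 ± 8.69 TPM (null). It was followed by Cnot8, a subunit of the deadenylase complex that shortens poly(A) tails, and Coq10a, a coenzyme Q binding protein (both -0.937). These correlations are descriptions over 10 libraries that share a fixed total.

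The globin load was set beside the sum of 8 erythroid markers, among them Slc4a1, Alas2, Klf1, Gata1, Epb42 and Rhag. That sum ran from 1188 to 2255 TPM in wild-type and from 2095 to 2833 TPM in null mice. Globin TPM per marker TPM was 94.0, 90.1, 87.3, 100.6 and 73.2 in wild-type mice and 74.8, 75.2, 85.8, 82.2 and 95.7 in null mice. The means of 89.0 ± 10.2 and 82.7 ± 8.65 (SD, n = 5 each) differed by -6.29 (null minus wild-type), and the ranges overlapped. The difference was -10.3 without wild-type mouse 5, -9.53 without null mouse 5 and -3.40 without wild-type mouse 4. This ratio was not tested.

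Markers of other cell types also had different means in the genotypes, and all counts that follow use the unadjusted limma p. Over all genes tested, 4.28% were higher and 7.30% lower in null mice at an unadjusted limma p under 0.05. Of 9 osteoblast and osteocyte markers, 9 were lower in null mice, 8 at an unadjusted limma p under 0.05, with sums of 5214 to 12695 TPM in wild-type and 2976 to 5958 TPM in null mice. Cartilage markers summed to 1938 to 6173 TPM in wild-type and 1637 to 2928 TPM in null mice, with 8 lower and 1 higher among those tested and 6 at an unadjusted p under 0.05. Matn1 and Matn3 were listed at 0 in at least 1 library, while the other 10 of 12, Col2a1 and Acan among them, were above 0 in all. Megakaryocyte markers were higher in null mice for 6 of 6 genes, all 6 at an unadjusted p under 0.05 (sums of 1143 to 1737 against 1343 to 2771 TPM). B lineage markers were lower for 8 of 8, with 4 at that level (479 to 586 against 259.9 to 524 TPM). Neutrophil markers were lower in null mice for 7 of 8 genes and higher for 1, with none at an unadjusted limma p under 0.05. Their sums of 56523 to 111486 TPM (wild-type) and 55975 to 113133 TPM (null) were far above the cartilage markers of the labelled tissue. Wild-type mouse 1, the lowest of all mice in 3 of the 4 globins and the second lowest in Hba-a2, had the lowest erythroid sum and the highest cartilage sum. The part of these markers in the globin differences was not tested.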

How the data were processed

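RNA of the medial knee cartilage cap was sequenced from 5 wild-type and 5 Mir324-null mice, 1 library per mouse. The authors deposited TPM values for 116912 Ensembl mouse transcripts. Kallisto and DESeq2 are named in the submitters' processing notes, as is the build GRCh38, which is a human one, while the transcript identifiers are those of mouse. Versions and settings are not given in the sources used here. Every column summed to 1000000 TPM, so depth is unknown and no counting interval can be given.

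Identifiers were matched without version to GENCODE M21 (GRCm38). In all, 115440 matched, and the 1472 others held 0.275% to 0.356% of a library. TPM was summed per gene. The 13841 genes averaging 1 TPM or more were compared as log2(TPM + 1) with limma 3.58.1 in R 4.3.3 (lmFit, eBayes with trend), two-sided, with Benjamini-Hochberg adjustment over all of them. A difference on this scale understates the change of genes with low values. Ratios within a library were compared as log2 with two-sided exact permutation tests, adjusted over the 3 ratios that could be computed. Correlations used 100000 resamples. Scripts were tested on simulated data.

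The members and gene lists were chosen with earlier results of these data known. Genes named are the members, the up to 8 most abundant members of each list averaging 50 TPM or more or with an unadjusted p under 0.05, and the 6 genes most and 3 least like the globin sum. Some of these entered the fits, counts and sums and are not reported here. Those outside this rule (embryonic globins, Hbq1a, Cygb) were named to complete a count, after their values were seen. Promoters came from RefSeq (GRCm38.p6), which matched all 4 globins. Ahsp, 1 planned ratio and 1 planned correlation that need it, and protein sequences were not analysed here. Alternatives were other scalings, pseudocounts, filters, a replicate block and each mouse left out. Those of the globin share, the correlation, the marker ratio and the list counts were added after seeing the data.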

Additional observations from a re-analysis of the deposited data

Results flagged for a closer look

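Every value of a globin, ratio, named gene or marker sum was examined within each genotype for a mouse that lay far from the other 4, relative to the range of the group. Of 134 groups examined, 4 had such a mouse. The groups share libraries and some are built from the same genes, so this count was not set against chance. No globin and no globin ratio was among them. Fth1, a ferritin chain, was at 3417 TPM in wild-type mouse 2, with the next wild-type mouse at 2762 TPM. Slc25a37, the mitochondrial iron importer, was at 301 TPM in null mouse 4, with the next null mouse at 257 TPM. The sum of skeletal muscle markers was 17.0 TPM in wild-type mouse 3, with the next at 14.3 TPM. The same sum was 56.8 TPM in null mouse 2, with the next at 21.5 TPM.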

How the results depend on the processing

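The 4 globin differences stayed positive under every alternative except quantile normalization for Hba-a1, where the difference is 0. Quantile normalization also gave smaller differences for the other 3 (0.11, 0.14 and 0.21). When single mice were left out, the difference ran from 0.38 to 0.58 for Hba-a1 and from 0.28 to 0.51 for Hba-a2. For Hbb-bs it ran from 0.25 to 0.46 and for Hbb-bt from 0.24 to 0.52. None passed the limma Benjamini-Hochberg threshold under any (adjusted p from 0.211 to 1 for Hba-a1, whose unadjusted p was under 0.05 in 13 of 21 alternatives). With no filter on low values, the limma SE of Hba-a1 grew to 7.37 (unadjusted p = 0.949); the cause was not tested. Quantile normalization turned the alpha to beta ratio to -0.13 and the Hba-a1 to Hba-a2 ratio to -0.11 on the log2 scale. Hba-a1 ranks first in each library, so this method fixes its difference at 0, while those of the other 3 globins stayed positive. Both ratios are built from these differences. With each mouse left out in turn, the log2 difference of the alpha to beta ratio ran from 0.043 to 0.12, that of Hba-a1 to Hba-a2 from 0.020 to 0.13 and that of Hbb-bs to Hbb-bt from -0.075 to 0.0099, turning sign without wild-type mouse 1. Genes past the adjusted threshold numbered 0 to 1, the 1 appearing without wild-type mouse 3, wild-type mouse 4 or null mouse 1. Genes lower in null mice at an unadjusted limma p under 0.05 numbered 620 without wild-type mouse 1, 626 without null mouse 1 and 668 without null mouse 5. Hp turned to -0.11 without wild-type mouse 1.

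Mice with the same replicate number did not deviate together (correlations from -0.144 to 0.056), so the numbers were not taken to pair mice. With the replicate number as a block, limma's adjusted p was 0.600, 0.660, 0.709 and 0.648 for Hba-a1, Hba-a2, Hbb-bs and Hbb-bt, 0 genes passed, and the exact permutation p of the alpha to beta ratio was 0.125. The planned tests of Ahsp were not run. TPM carries no read depth, so a level near 0 has no detection limit.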
